A study of Mus musculus with 10 samples.

Results

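The mouse histone cluster genes were followed across 6 bulk RNA-seq libraries of embryonic mandibular prominences (MNPs), the parts of the first pharyngeal arch from which the lower jaw grows. A gene was taken as a member when its symbol in the deposited files began with Hist1h, Hist2h, Hist3h or Hist4h. This gave 70 of 33641 symbols, listed as 76 of 105129 transcripts, with 6 genes for the linker histone H1, 20 for H2A, 19 for H2B, 12 for H3 and 13 for H4. By GENCODE M21 positions (mm10), 56 members lay on chromosome 13, 10 on chromosome 3, 3 on chromosome 11 and 1, Hist4h4, on chromosome 6. 62 members passed the filter on low counts and were among the 17477 genes tested. The other 8 were Hist1h1t, Hist1h2aa, Hist1h2an, Hist1h2ba, Hist2h2ab, Hist2h2ac, Hist2h3c1 and Hist3h2bb-ps. Hist1h2aa and Hist1h2ba, which encode histones of the male germ line, had 0 counts in every library, where a limit of 3 counts stands for 0.0567 to 0.133 CPM, that is counts scaled to the size of the library.

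H2A, H2B, H3 and H4 form the protein core around which DNA is wrapped, and H1 binds the DNA between cores. Most cluster genes have a single exon and are expressed in S phase, when new DNA must be packaged. Their mRNAs are cut just after a short stem-loop, to which the stem-loop binding protein Slbp attaches, and as a rule carry no poly(A) tail, while polyadenylated forms of some cluster genes are known from cells that have left the cell cycle. The libraries were made from polyadenylated RNA, so the values below are those of histone RNA that remained in such libraries and need not follow the total histone mRNA of the tissue.

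The libraries came from embryos of strain CD1 at embryonic day 10.5. WT (replicates 3 and 4) was compared with Hand2 f/f; Wnt1-Cre+ embryos (Hand2 cKO, replicates 1, 2 and 3) and with embryos that were Gli2 f/f and Gli3 f/f with Wnt1-Cre+ (Gli2/3 cKO, replicate 3 alone), and the other 4 of the 10 labelled samples were not analysed here. Hand2, Gli2 and Gli3 encode transcription factors, and Wnt1-Cre deletes in cells of neural crest origin, the source of most arch mesenchyme, and leaves floxed alleles intact in the epithelium, the mesodermal core, vessels and blood. The sources used here do not say whether WT embryos carried floxed alleles or Cre. Both mutants were compared with the same WT libraries, and the single Gli2/3 cKO library has no replicate, so its tests borrow the spread of the other groups. Nothing in the labels says which libraries came from separate embryos, and p-values measure the spread between these libraries only.

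The libraries held between 21420197 and 53326697 estimated counts. Hand2 was at 174.5 and 209 CPM in WT, 13.4, 25.5 and 15.6 in Hand2 cKO and 144 in Gli2/3 cKO. Gli2/3 cKO had 58.3 CPM of Gli2 and 80.2 of Gli3, the lowest of the 6 libraries for both. Hand2 cKO 2 stood apart in transcript length. Each doubling of length went with a change of -0.37 on the log2 scale there, over 13243 genes, against -0.00 to 0.14 in the other 5 libraries, so short transcripts were over-represented in Hand2 cKO 2. Values of Hand2 cKO 2 are therefore given apart, and their length background beside them. The 10 markers of arch mesenchyme, the tissue the label leads one to expect, summed to 1580 to 1997 CPM. Markers of other cell types were present too, with sums of 209 to 295 CPM for epithelium, 171 to 231 for endothelium, 32.5 to 40.6 for muscle precursors, 19.5 to 24.3 for neural cells and 9.17 to 19.4 for macrophages, while the 6 erythroid markers, blood cell genes such as the embryonic globins, ranged from 2407 to 7482 CPM.

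The stem-loops of the annotated transcripts are shown first, since they are the 3' end signal that sets cluster histone mRNAs apart. The pattern GGNNCTTNTNANNNCC, read on the transcript's own strand, was found in the GENCODE M21 model of 44 of the 70 members, that is 4 of 6 H1, 11 of 20 H2A, 8 of 19 H2B, 9 of 12 H3 and 12 of 13 H4 genes. Many models without a match stop at or near the end of the coding sequence. Those of Hist1h2bm and Hist1h2ai have 381 and 393 bases, 378 and 390 of them coding. A missing match there does not show that the gene lacks a stem-loop. In the lines below the 16 capitals are the stem-loop, flanked by 5 transcript bases on each side, written 5' to 3' with T for U, and chosen for the members that carry the results.
Hist1h4i: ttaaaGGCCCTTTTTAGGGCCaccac
Hist1h2ag: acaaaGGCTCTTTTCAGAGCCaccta
Hist1h2bj: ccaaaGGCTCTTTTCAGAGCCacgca
Hist1h3c: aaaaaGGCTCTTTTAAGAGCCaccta
Hist1h4b: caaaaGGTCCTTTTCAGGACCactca
Hist1h1c: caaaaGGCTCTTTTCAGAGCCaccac
Hist3h2a: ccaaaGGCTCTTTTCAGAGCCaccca
Hist4h4: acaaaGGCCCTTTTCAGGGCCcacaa

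The capitals lie at chr13:22040966-22040981 (minus strand) in Hist1h4i, chr13:22042483-22042498 (minus) in Hist1h2ag, chr13:22043638-22043653 (plus) in Hist1h2bj, chr13:23745047-23745062 (minus) in Hist1h3c, chr13:23757366-23757381 (plus) in Hist1h4b, chr13:23739512-23739527 (plus) in Hist1h1c, chr11:58955172-58955187 (plus) in Hist3h2a and chr6:136803998-136804013 (minus) in Hist4h4. The form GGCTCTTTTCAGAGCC was the commonest, in 24 of the 44 genes, spread over H1, H2A, H2B and H3. The 12 H4 genes had 4 other forms, led by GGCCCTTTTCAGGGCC in 7, and none of the 4 occurred in another family. Hist1h4i shared the form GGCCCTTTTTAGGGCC with Hist2h4. Members differed most in what follows the stem-loop. The annotated transcript ended 23 bases after it in Hist1h2ag and in Hist1h2bj, but 330 bases after it in Hist1h4i, 840 in Hist1h1c, 1643 in Hist3h2a and 2445 in Hist4h4. Of the 44 models, 22 ran on for more than 100 bases. A poly(A) signal, AATAAA or ATTAAA, stood in the last 60 bases of 17 of the 70 members. In 12 of these the model also ran on for more than 100 bases after a stem-loop, Hist1h4i among them.

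Promoters are shown for 2 neighbouring genes on chromosome 13 that carry results below. These are the 200 bases before the RefSeq start in GRCm38.p6, with motif letters in capitals. The motifs searched were the octamer ATTTGCAT, CCAAT and TATAAA, the letters of a TATA box. Each was sought on both strands and at any position, with overlapping matches counted separately.
Hist1h4i: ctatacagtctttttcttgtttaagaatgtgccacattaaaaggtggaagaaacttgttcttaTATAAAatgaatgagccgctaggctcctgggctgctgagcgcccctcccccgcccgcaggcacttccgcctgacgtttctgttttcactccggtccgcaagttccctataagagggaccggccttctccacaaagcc
Hist1h2ag: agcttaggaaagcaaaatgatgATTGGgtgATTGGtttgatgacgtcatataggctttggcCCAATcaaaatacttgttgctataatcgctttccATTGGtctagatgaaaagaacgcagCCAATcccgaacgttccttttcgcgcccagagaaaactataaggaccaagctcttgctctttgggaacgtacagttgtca

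The Hist1h4i window, chr13:22041363-22041562 on the minus strand, held TATAAA once and no other of the 3 motifs. This match stands nearer the far end of the window than the start, so it is not read as a TATA box. The letters tataag, which stand nearer the start, were not part of the search. A lack of a TATA box is therefore not shown. The Hist1h2ag window, chr13:22042950-22043149 on the minus strand, held CCAAT or its complement 5 times. It overlaps the window of Hist1h2bj, chr13:22042998-22043197 on the plus strand, since these genes are transcribed away from a shared interval. RefSeq matched 70 members and held a promoter window of 250 bases before to 50 after the start for 62 of them. CCAAT was found in 85.5% of these members against 37.9% of 27025 promoters, TATAAA in 56.5% against 14.2%, and the octamer in 20.97% against 1.75%. By family, CCAAT was in 6 of 6 H1, 18 of 18 H2A, 16 of 16 H2B and 10 of 10 H3 windows but in 3 of 12 H4 windows. The octamer was in 7 of 18 H2A and 6 of 16 H2B windows and in none of H1, H3 or H4. These are matches of letters and not measured sites.

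Levels of the members were low. Summed over the 70 genes, they took 62.9 and 64.1 CPM in the WT libraries, 67.4, 138 and 68.2 in Hand2 cKO 1, 2 and 3, and 49.5 in Gli2/3 cKO. The WT mean was 63.5 ± 0.893 CPM (SD, n = 2) and the Hand2 cKO mean 91.2 ± 40.6 (SD, n = 3). Hand2 cKO 1 and 3 lay within a few CPM of WT, with a mean of 67.8 CPM and a ratio to WT of 1.07, while Hand2 cKO 2 had 2.04 times their mean. Gli2/3 cKO was lowest, at 0.780 times the WT mean. Behind these sums stood 1295 to 5228 estimated counts per library, and 48 of the 70 members had a median under 20 counts, so single members were measured with little depth. As in any bulk sample, fewer cells of a type and less RNA per cell cannot be told apart.

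**Figure D1:**
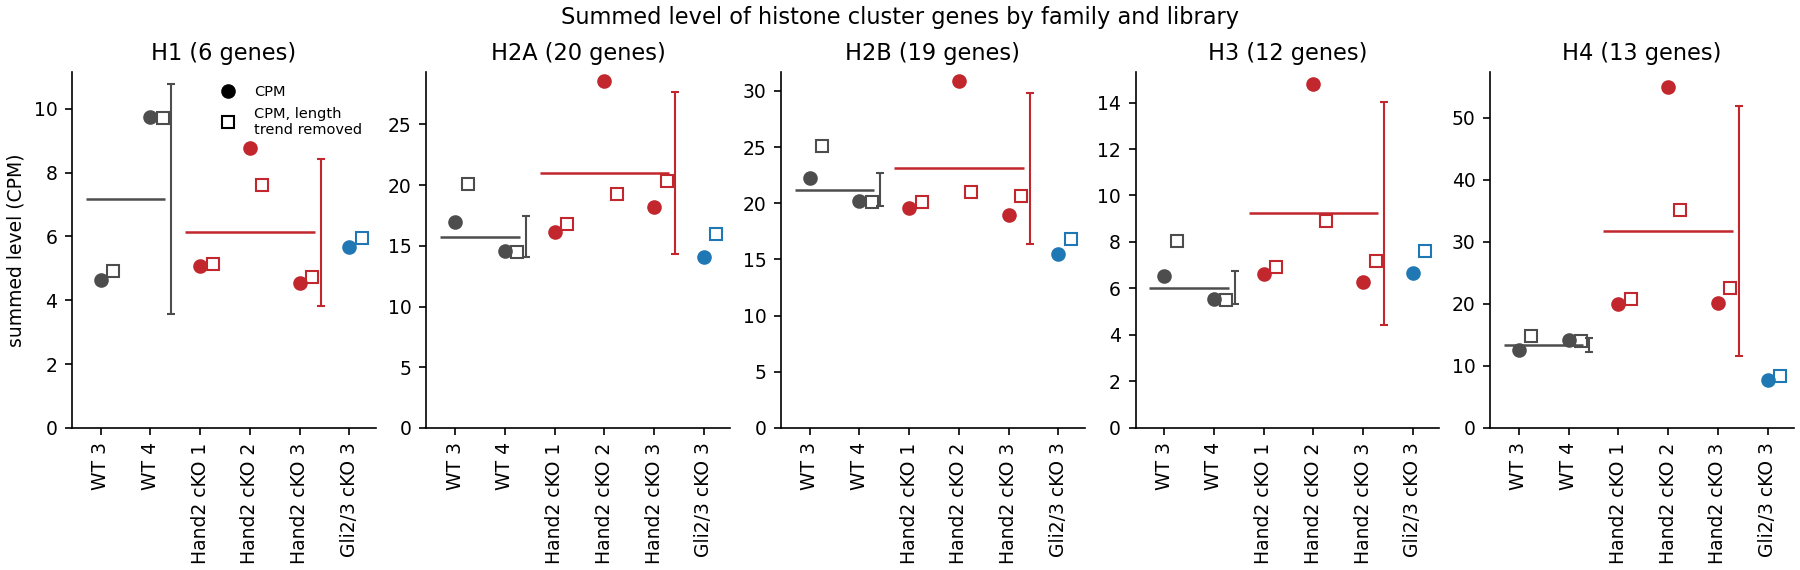
Summed CPM (vertical axis, from 0) of the members of each histone family in each of the 6 libraries, as filled circles, and the same with the length trend removed, as open squares; horizontal lines and bars are the mean and SD of the filled circles of WT (grey, n = 2) and Hand2 cKO (red, n = 3), and Gli2/3 cKO is blue. Hand2 cKO 2 is the highest filled circle in H2A, H2B, H3 and H4 and WT 4 in H1, and in H4 the Hand2 cKO libraries at 20.02, 55.0 and 20.2 CPM lie above both WT libraries while Gli2/3 cKO lies below them.

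The linker histone genes summed to 4.64 and 9.73 CPM in WT, 5.07, 8.77 and 4.55 in Hand2 cKO and 5.66 in Gli2/3 cKO. WT 4 and Hand2 cKO 2 were the high libraries, so the groups overlapped. One gene held most of the family's counts in WT 4. Hist1h1c, a linker histone of somatic cells with a transcript of 1560 bases, was at 3.29 and 8.14 CPM in WT, 3.19, 4.99 and 2.81 in Hand2 cKO and 3.22 in Gli2/3 cKO. These libraries were also highest for the 6 erythroid markers, whose sum was 2407 and 6976 CPM in WT, 3542, 7482 and 3345 in Hand2 cKO and 3042 in Gli2/3 cKO, with none of the 6 at 0 in every library, and the part of blood cells in the H1 level was not tested. Other somatic linker genes were lower. Hist1h1e was at 0.458 and 0.275 CPM in WT, 0.570, 0.794 and 0.780 in Hand2 cKO and 0.544 in Gli2/3 cKO. Hist1h1b was at 0.214 and 0.310 CPM in WT, 0.416, 1.24 and 0.361 in Hand2 cKO and 0.612 in Gli2/3 cKO. In both genes the 3 Hand2 cKO libraries lay above both WT libraries, without passing the test. Hist1h1a ranged from 0.253 to 0.792 CPM and Hist1h1d from 0.297 to 0.871. The testis gene Hist1h1t had counts in 2 libraries only, WT 3 and Hand2 cKO 2, at 0.0390 and 0.0792 CPM.

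H2A genes summed to 16.9 and 14.6 CPM in WT, 16.2, 28.6 and 18.2 in Hand2 cKO and 14.1 in Gli2/3 cKO. Hist3h2a, whose gene lies on chromosome 11 and whose model is 2146 bases long, gave the most counts, at 5.38 and 6.07 CPM in WT, 4.70, 7.96 and 5.78 in Hand2 cKO and 3.84 in Gli2/3 cKO. Per kilobase of transcript the order was different, and Hist1h2ag led the family with a mean of 6.33 CPM per kilobase. Its CPM was 2.25 and 2.07 in WT, 3.91, 6.99 and 2.12 in Hand2 cKO and 1.08 in Gli2/3 cKO. Hand2 cKO 3 fell between the WT libraries, so Hist1h2ag did not separate the groups. Hist1h2ai followed at 5.80 CPM per kilobase, with CPM of 2.47 and 2.24 in WT, 1.85, 3.17 and 1.03 in Hand2 cKO and 2.92 in Gli2/3 cKO. Hist1h2ae varied more within WT, from 0.491 to 2.10 CPM, and reached 3.43 in Hand2 cKO 2. Hist1h2ab was a low gene, at 0.243 and 0.191 CPM in WT, 0.491, 0.694 and 0.427 in Hand2 cKO and 0 in Gli2/3 cKO. All 3 Hand2 cKO values of Hist1h2ab were above both WT values. Hist1h2ak showed the same order, with 0.296 and 0.281 CPM in WT, 0.480, 0.784 and 0.487 in Hand2 cKO and 0.320 in Gli2/3 cKO.

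H2B genes summed to 22.2 and 20.2 CPM in WT, 19.6, 30.9 and 18.9 in Hand2 cKO and 15.5 in Gli2/3 cKO. Hist2h2be, an H2B gene known from olfactory neurons, had a model of 2620 bases and CPM of 6.45 and 5.04 in WT, 4.80, 4.36 and 4.79 in Hand2 cKO and 3.25 in Gli2/3 cKO. Both WT libraries were above the 4 mutant libraries for Hist2h2be, and Hand2 cKO 2 was not raised. Hist3h2ba, on chromosome 11 near Hist3h2a, was at 4.32 and 4.69 CPM in WT, 2.19, 5.07 and 2.65 in Hand2 cKO and 1.38 in Gli2/3 cKO. Apart from Hand2 cKO 2 its mutant values lay below both WT values. Hist1h2bk was highest of the family per kilobase, with a mean of 6.10 CPM per kilobase and CPM of 2.82 and 1.76 in WT, 2.74, 5.41 and 2.77 in Hand2 cKO and 1.94 in Gli2/3 cKO. Hist1h2bc was at 2.55 and 2.21 CPM in WT, 3.61, 4.45 and 1.94 in Hand2 cKO and 1.36 in Gli2/3 cKO. Hist1h2bj was at 0.539 and 0.586 CPM in WT, 1.25, 2.99 and 0.573 in Hand2 cKO and 0.112 in Gli2/3 cKO. Hand2 cKO 3 again sat at the WT level, as in the divergently placed Hist1h2ag. Hist1h2be kept a narrow range, from 1.47 to 1.89 CPM, with its counts in long models whose span overlaps Hist1h1e on the same strand, so counts of these 2 genes are uncertain. The pseudogene Hist3h2bb-ps did not exceed 0.0532 CPM.

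H3 genes summed to 6.55 and 5.53 CPM in WT, 6.62, 14.8 and 6.28 in Hand2 cKO and 6.66 in Gli2/3 cKO. Hist1h3c gave the largest part, at 2.26 and 1.05 CPM in WT, 2.74, 7.91 and 2.48 in Hand2 cKO and 1.63 in Gli2/3 cKO. Its Hand2 cKO values were above both WT values, with Hand2 cKO 2 far above the other 2. Hist1h3h was at 1.08 and 1.30 CPM in WT, 0.627, 1.45 and 0.593 in Hand2 cKO and 1.25 in Gli2/3 cKO. There Hand2 cKO 1 and 3 were the lowest libraries. Hist1h3i was nearly level, from 0.475 to 0.576 CPM, and Hist1h3a ranged from 0.272 to 1.21. Hist1h3e had counts in both WT libraries, 0.299 and 0.333 CPM, none in Hand2 cKO 1 and 2, 0.204 CPM in Hand2 cKO 3 and 0.508 in Gli2/3 cKO.

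H4 was the family in which Hand2 cKO and Gli2/3 cKO lay on opposite sides of WT. Its sum was 12.5 and 14.1 CPM in WT, 20.02, 55.0 and 20.2 in Hand2 cKO and 7.65 in Gli2/3 cKO. Hand2 cKO 1 and 3 together had 1.51 times the WT mean, Hand2 cKO 2 had 2.74 times the mean of Hand2 cKO 1 and 3, and Gli2/3 cKO had 0.575 times the WT mean. Most of this difference lay in a single gene. Hist1h4i, on the minus strand at chr13:22040636-22041362 in a model of 727 bases, was at 7.71 and 9.55 CPM in WT, 15.1, 45.2 and 15.1 in Hand2 cKO and 2.44 in Gli2/3 cKO. In estimated counts this was 396 and 216 in WT, 799, 1713 and 626 in Hand2 cKO and 63.8 in Gli2/3 cKO, so it had the most counts of any member in WT and in Hand2 cKO. The 3 genotypes did not overlap in Hist1h4i. Its mean of 21.8 CPM per kilobase of transcript, between 3.36 and 62.2 over libraries, was the highest among the members, ahead of the 6.33 of Hist1h2ag.

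Of the H4 counts, Hist1h4i held 61.7% in WT 3 (95% Wilson interval 57.9 to 65.4), 67.7% in WT 4 (62.4 to 72.6), 75.5% in Hand2 cKO 1 (72.8 to 78.02), 82.2% in Hand2 cKO 2 (80.5 to 83.8), 74.7% in Hand2 cKO 3 (71.7 to 77.5) and 32.0% in Gli2/3 cKO (25.9 to 38.8). Such intervals cover counting error only. Without Hist1h4i the H4 sum was 4.80 and 4.57 CPM in WT, 4.90, 9.78 and 5.12 in Hand2 cKO and 5.21 in Gli2/3 cKO. Outside Hist1h4i, H4 genes together were therefore nearly level outside Hand2 cKO 2. Hist1h4b, next in level per kilobase, was at 0.485 and 0.384 CPM in WT, 0.860, 2.27 and 0.661 in Hand2 cKO and 0.404 in Gli2/3 cKO. Hist1h4k ranged from 0.222 to 0.588 CPM and Hist1h4h from 0.102 to 1.02, both with the highest value in Hand2 cKO 2. Hist4h4, whose gene stands alone on chromosome 6 with a model of 2863 bases, was at 1.15 and 1.52 CPM in WT, 0.896, 1.15 and 1.16 in Hand2 cKO and 1.87 in Gli2/3 cKO. Gli2/3 cKO, lowest in Hist1h4i, was the highest library here, and Hand2 cKO 2 was level with WT 3.

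**Figure D2:**
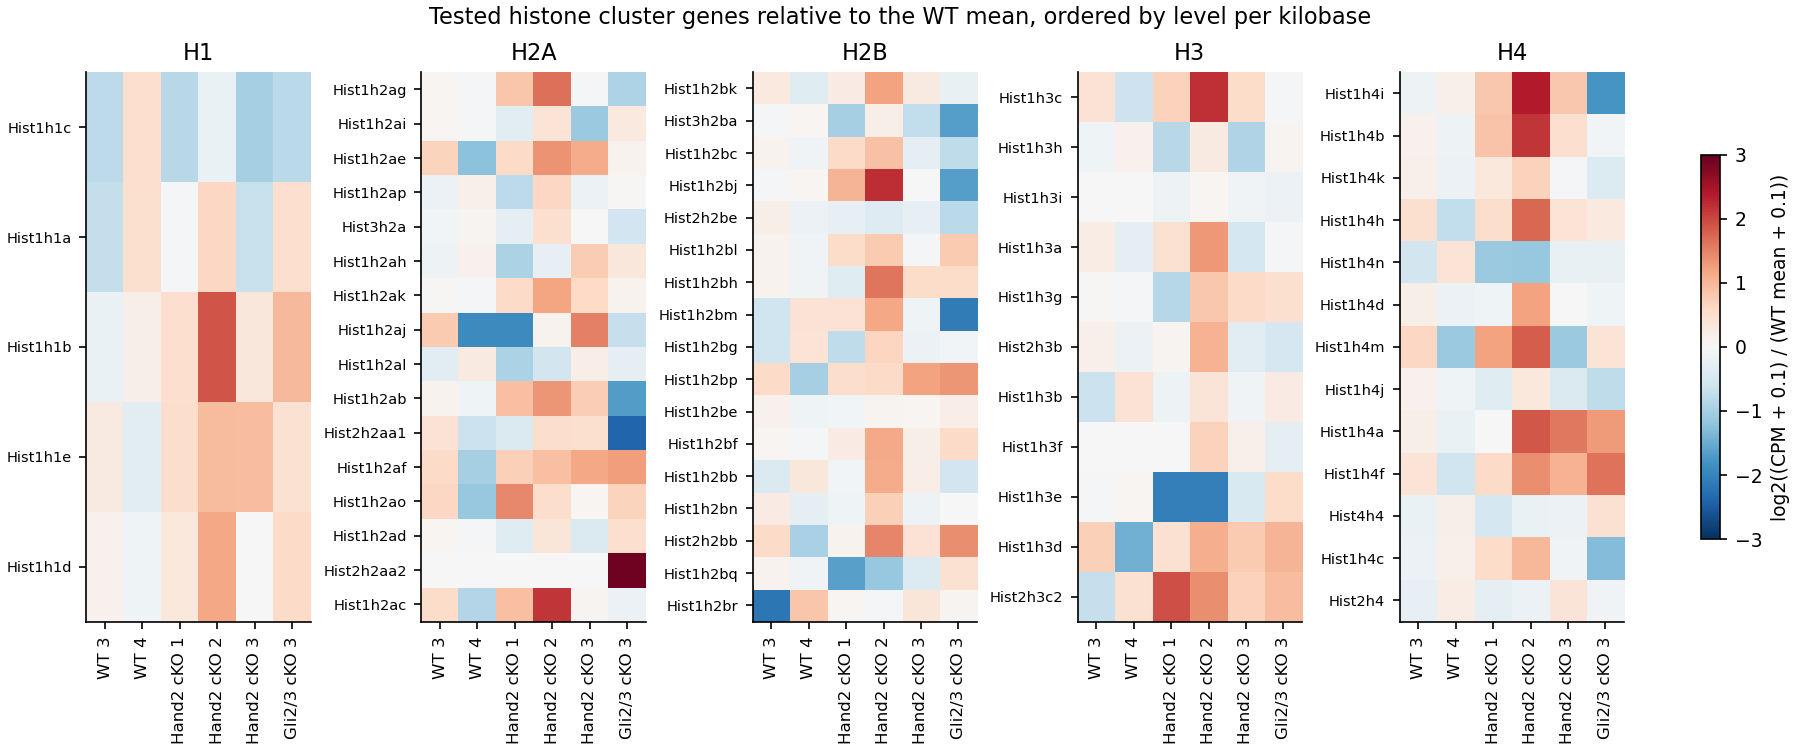
Heat map of the 62 tested members by library; colour is log2 of CPM plus 0.1 over the WT mean plus 0.1, capped at 3 either way, and rows are ordered within families by level per kilobase. The column of Hand2 cKO 2 is the highest for 41 of the 62 members, and Hist1h4i, at the top of H4, is above WT in the 3 Hand2 cKO columns and below it in Gli2/3 cKO.

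Hand2 cKO 2 was the highest library for 41 of 62 tested members, or 66.1%, against 32.1% of the 17477 genes tested. Relative to the mean of Hand2 cKO 1 and 3, on the log2 scale with 0.1 CPM added, its difference had a median of 0.71 over the tested members and was positive in 48 of the 62. Over every gene tested the median was -0.03. Members are short, and length moved with this difference. Among genes with a model of up to 1000 bases the median was 0.61 over 1954 genes and 0.85 over 46 members, 37 of them positive. Among longer genes it was -0.06 over 15445 genes and 0.33 over 16 members, 11 of them positive. In each length class the members' median was the higher one, and the part of length in the members' level in Hand2 cKO 2 was not tested beyond these values and the adjusted sums below.

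**Figure D3:**
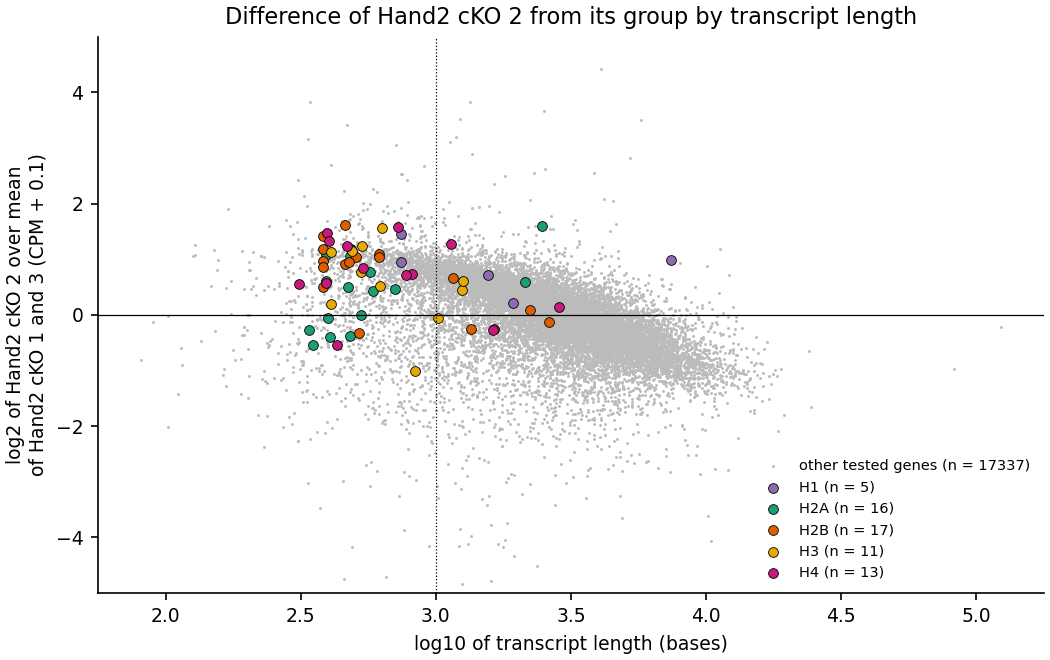
log10 of transcript length in bases (horizontal axis) against the log2 ratio of Hand2 cKO 2 to the mean of Hand2 cKO 1 and 3 (CPM plus 0.1), with each other gene tested as a grey point and the members coloured by family; the dotted line marks 1000 bases and 30 genes lie outside the vertical range. The cloud of genes slopes from positive values at short lengths to negative ones at long lengths, and 48 of 62 members lie above 0.

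After each library's trend with length was removed, the member sum was 72.9 and 64.0 CPM in WT, 69.8, 92.0 and 75.5 in Hand2 cKO and 54.8 in Gli2/3 cKO. Hand2 cKO 2 was still the highest library, but at 1.27 times the mean of Hand2 cKO 1 and 3 in place of 2.04. The families parted here. H2A and H2B came to 1.04 and 1.03 times that mean, H3 to 1.26, H1 to 1.54 and H4 to 1.62. The H4 sum on this scale was 14.8 and 14.1 CPM in WT, 20.8, 35.2 and 22.6 in Hand2 cKO and 8.44 in Gli2/3 cKO, so the order of the genotypes in H4 was kept. For H1 it was 4.92 and 9.72 CPM in WT, 5.14, 7.60 and 4.74 in Hand2 cKO and 5.94 in Gli2/3 cKO.

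Transcripts whose model is spliced or longer than 1000 bases were looked at apart from the rest. They were 23 transcripts of 18 members and summed to 24.6 and 28.3 CPM in WT, 22.8, 31.1 and 22.8 in Hand2 cKO and 20.9 in Gli2/3 cKO. A further 53 transcripts of 53 members, short and unspliced, summed to 38.2 and 35.8 CPM in WT, 44.6, 107 and 45.4 in Hand2 cKO and 28.7 in Gli2/3 cKO. Hist1h2bp was the only member with transcripts in both classes, so the split mostly compares different genes and not forms of the same gene. The second class is not confined to models that end just after the stem-loop, since it holds Hist1h4i. Hand2 cKO 2 thus stood 1.36 times above the mean of Hand2 cKO 1 and 3 in the first class and 2.38 times in the second. As a share of member counts the first class held 39.2% in WT 3 (95% Wilson interval 37.5 to 40.9), 44.1% in WT 4 (41.6 to 46.7), 33.9% in Hand2 cKO 1 (32.3 to 35.4), 22.5% in Hand2 cKO 2 (21.4 to 23.7), 33.4% in Hand2 cKO 3 (31.7 to 35.2) and 42.2% in Gli2/3 cKO (39.5 to 44.9). The 3 Hand2 cKO libraries were below both WT libraries and Gli2/3 cKO was between them. A share falls when the second class rises as well as when the first falls. Hand2 cKO 1 and 3 had 0.862 times the WT mean in the first class and 1.21 times in the second. By family the share in H4 ran from 5.35% in Hand2 cKO 2 to 35.0% in Gli2/3 cKO. Hist1h4i, in the second class, held 82.2% and 32.0% of the H4 counts in these libraries, so the H4 share moves with its level. The share was highest in H1, from 75.9% to 89.5%, where Hist1h1c carries it.

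Several members differ too little in sequence for the authors' estimates to be read gene by gene. Within families the median identity of coding sequences of equal length was 96.7% in H2A, 96.3% in H2B, 97.2% in H3 and 93.9% in H4, with 2 identical pairs in H2A, 2 in H2B, 1 in H3 and 1 in H4. Hist2h2aa1 and Hist2h2aa2, an identical pair, show what follows for the values. Hist2h2aa2 was at 0 in all 5 WT and Hand2 cKO libraries and at 0.655 CPM in Gli2/3 cKO, and Hist2h2aa1 was at 0.233 to 0.645 CPM in the 5 libraries and at 0 in Gli2/3 cKO. Summed, the pair was at 0.603 and 0.233 CPM in WT, 0.286, 0.645 and 0.628 in Hand2 cKO and 0.655 in Gli2/3 cKO, with no gap between the genotypes. Likewise Hist1h2bm was at 0 in Gli2/3 cKO, but with its identical partner Hist1h2bh it summed to 0.403 CPM there, against 0.453 and 0.694 in WT. Hist1h2bq and Hist1h2br summed to 1.29 and 1.79 CPM in WT, 0.683, 0.822 and 1.35 in Hand2 cKO and 2.03 in Gli2/3 cKO. Hist1h4i itself has no such partner. Its closest H4 genes, Hist1h4m and Hist1h4n, differ from it at 10 of 309 coding bases, and Hist1h2ab differs from its closest at 7 of 390.

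The first comparison asked whether loss of Hand2 in the neural crest lineage went with a change of histone cluster RNA. Over the 62 tested members, 47 log2 fold changes of Hand2 cKO against WT were positive and 14 negative, while Hist2h2aa2 had no counts in either group. The median was 0.51. Among all genes tested, 49.9% were positive and the median was -0.00. A call needed a fold above 1.5 together with a p below 0.05 after Benjamini-Hochberg adjustment over all genes, by edgeR's quasi-likelihood test. By this rule 0 members and 0.0114% of all genes were called. By DESeq2 also 0 members were called, against 1.04% of genes. At an unadjusted p below 0.05 edgeR had 2 members higher and 0 lower, against 2.44% and 4.02% of genes, and DESeq2 had 3 higher and 0 lower, against 3.34% and 3.91%, with a lowest adjusted p of 0.161, for Hist1h4i. Groups did not overlap in 11 members that were higher in Hand2 cKO and in 3 that were lower, Hist1h2bq, Hist1h3e and Hist2h2be, against 15.3% and 15.7% of genes. Summed with its identical partner Hist1h2br, Hist1h2bq did overlap, at 1.29 CPM in WT 3 and 1.35 in Hand2 cKO 3. By family the median was 0.66 in H1 (4 of 5 positive), 0.34 in H2A (11 of 16), 0.56 in H2B (14 of 17), 0.37 in H3 (8 of 11) and 0.73 in H4 (10 of 13).

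Hist1h4i had the smallest p of the members. Its log2 fold change was 1.54 ± 0.56 (SE, 95% interval 0.19 to 2.90), with an unadjusted p of 0.0313 and an adjusted p of 0.723 by edgeR. It was higher than both WT libraries in 3 of 3 Hand2 cKO libraries. Hist1h2ab followed at 1.34 ± 0.53 with an unadjusted p of 0.0425. Hist1h4b was at 1.48 ± 0.65, Hist1h3c at 1.37 ± 0.64, Hist1h2bj at 1.51 ± 0.73 and Hist1h1b at 1.38 ± 0.73, with intervals that include 0. On the other side Hist1h2bq was at -1.12 ± 0.48, Hist1h1c at -0.63 ± 0.45, Hist3h2ba at -0.45 ± 0.40 and Hist2h2be at -0.31 ± 0.22, and these intervals too include 0. Hist3h2a, at 0.10 ± 0.28, and Hist1h2ap, at -0.01 ± 0.49, had estimates near 0.

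Without Hand2 cKO 2 the members' median was 0.17, with 38 of 62 positive against 47.4% of all genes. With the length trend removed it was 0.15, with 36 positive against 49.9% of all genes. The family medians without Hand2 cKO 2 were 0.16 in H1, 0.31 in H2A, 0.20 in H2B, -0.06 in H3 and 0.40 in H4. Hist1h4i kept its direction, at 0.80 ± 0.17 without that library (unadjusted p 0.00365, adjusted p 0.301 by edgeR) and at 1.10 ± 0.27 with the trend removed (adjusted p 0.289). Hist3h2ba was at -0.91 ± 0.22 without that library, with an unadjusted p of 0.0078 and an adjusted p of 0.383 by edgeR. Hist1h3h was at -0.94, with an unadjusted p of 0.0315. These were 1 member higher and 2 lower at an unadjusted p below 0.05, against 4.26% and 5.48% of all genes in that fit. By edgeR 0 members were called in Hand2 cKO against WT without Hand2 cKO 2, where 0.225% of all genes were, and 0 with the length trend removed, where 0.32% were.

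**Figure D4:**
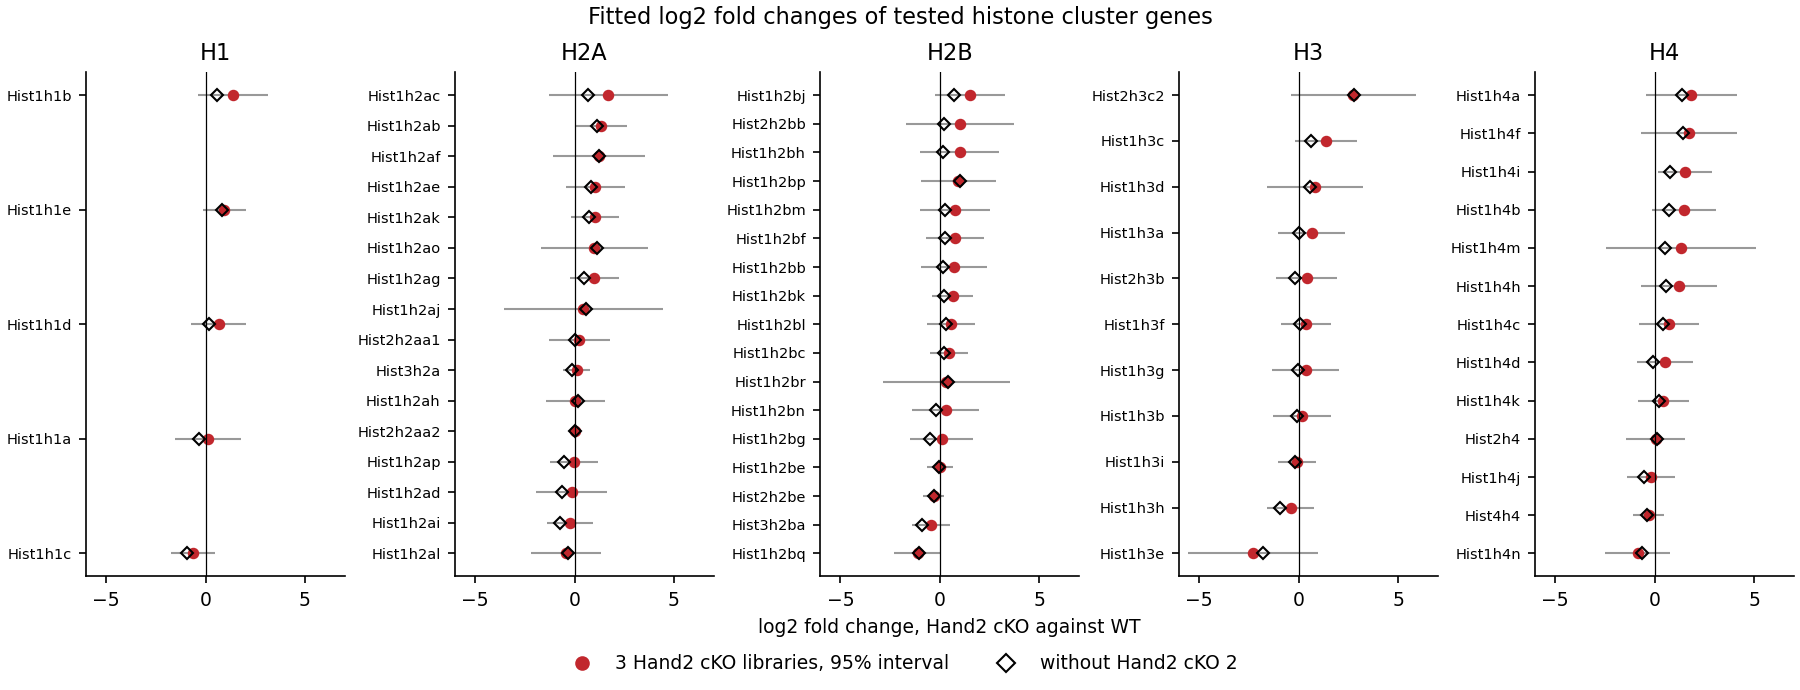
log2 fold changes of the 62 tested members in Hand2 cKO against WT by edgeR, by family, with the 3 Hand2 cKO libraries (red circles with 95% intervals) and without Hand2 cKO 2 (open diamonds). The intervals of Hist1h4i and Hist1h2ab lie above 0 and the others include it, and most diamonds, with a median of 0.17, lie to the left of their circles, with a median of 0.51.

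The second comparison set the lone Gli2/3 cKO library against WT. Here 32 of the 62 members were positive and 30 negative, with a median of 0.07, while 50.2% of all genes were positive. By edgeR 0 members were called, against 0.0114% of genes, and by DESeq2 0, against 0.755% of genes. At an unadjusted p below 0.05 edgeR had 1 member higher and 5 lower, against 1.63% and 2.96% of genes, and DESeq2 0 higher and 6 lower, against 1.4% and 3.5%. The Gli2/3 cKO value lay outside the WT range in 25 members above and 18 below, against 36.6% and 33.7% of genes. The family medians were 0.66 in H1, 0.07 in H2A, -0.05 in H2B, 0.11 in H3 and -0.09 in H4.

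2 of the 5 lower members, Hist3h2ba at -1.71 ± 0.60 (unadjusted p 0.0284) and Hist2h2be at -0.82 ± 0.31 (unadjusted p 0.0352), were measured in every library. The other 3 were Hist1h2ab, Hist1h2bm and Hist2h2aa1, at 0 in Gli2/3 cKO, and against a floor of 3 counts there they were at least 1.89-fold, 2.85-fold and 3.64-fold lower than in WT. Summed with their identical partners, as given above, Hist1h2bm and Hist2h2aa1 were not lower by as much. The higher member was Hist2h2aa2, at least 6.86-fold higher than the WT mean with each WT library set at its floor, with the partner Hist2h2aa1 running the other way as described above. With 0 counts in every WT and Hand2 cKO library, Hist2h2aa2 passed the filter on low counts only through Gli2/3 cKO. Its direction was thus fixed by the filter, and its place among the higher members is no result. Hist1h4i was at -1.81 ± 0.80, with an unadjusted p of 0.0636 and an adjusted p of 1 by edgeR. Without Hand2 cKO 2, which enters this comparison only through the shared estimate of spread, Hist1h4i was at -1.82 ± 0.23 with an adjusted p of 0.0981.

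The third comparison set the mutants directly against each other. In Gli2/3 cKO against Hand2 cKO 22 members were positive and 40 negative, with a median of -0.22, while 48.2% of all genes were positive. By edgeR 0 members were called, against 0.0343% of genes, with 2 higher and 7 lower at an unadjusted p below 0.05, against 2.86% and 2.63%. Groups did not overlap in 10 members that were higher and 25 that were lower in Gli2/3 cKO, against 28.7% and 27.2% of genes. Hist1h2ab, at 0 in Gli2/3 cKO, had the smallest p by edgeR (unadjusted p 0.00238, adjusted p 0.498). DESeq2 called 1 member, Hist1h4i, against 0.83% of genes, and had 2 higher and 9 lower at an unadjusted p below 0.05, against 2.18% and 3.24%. Hist1h4i was at -3.36 ± 0.84 by edgeR, with an unadjusted p of 0.00699 and an adjusted p of 0.654, and at -3.37 ± 0.67 by DESeq2, with an adjusted p of 0.00016. Without Hand2 cKO 2 edgeR called it too, at -2.62 ± 0.24 with an adjusted p of 0.0428, in a fit that called 0.133% of all genes. With the length trend removed it was at -2.86 ± 0.41 with an adjusted p of 0.0877 by edgeR, where 0.223% of all genes were called. This call sets 1 Gli2/3 cKO library against 3, or 2, Hand2 cKO libraries.

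The other members with low p in that comparison were Hist1h2bj at -3.76 ± 1.24 (unadjusted p 0.0224), Hist1h4c at -3.37 ± 1.14 (0.0244) and Hist1h2ag at -2.01 ± 0.73 (0.0326). Hist1h2bj lay below the 0.115 CPM that 3 counts stand for in Gli2/3 cKO, so its fold is uncertain. Hist1h2ab, Hist1h2bm and Hist2h2aa1, at 0 in Gli2/3 cKO, were at least 4.68-fold, 4.71-fold and 4.53-fold lower against the floor. For Hist1h2bm and Hist2h2aa1, both among the lower members counted above, this depends on how reads shared with identical partners were divided. Summed, Hist2h2aa1 and Hist2h2aa2 were at 0.286, 0.645 and 0.628 CPM in Hand2 cKO and 0.655 in Gli2/3 cKO. Hist1h2bh and Hist1h2bm were at 0.650, 1.79 and 0.704 and at 0.403. On the higher side were Hist1h2bq at 1.57 ± 0.57 and Hist2h2aa2, at least 9.44-fold higher than the Hand2 cKO mean with each library set at its floor. Here too the direction of Hist2h2aa2 was fixed by the filter, which it passed only through Gli2/3 cKO.

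Hist1h4i, Hist1h2ag and Hist1h2bj lie next to each other, and this was noted after their values were seen. With Hist1h2ah and Hist1h2bk they form a group of 5 members at chr13:22035164-22043676. Hist1h2ah, the fifth, was at 0.710 and 0.885 CPM in WT, 0.366, 0.657 and 1.42 in Hand2 cKO and 1.04 in Gli2/3 cKO, an order unlike that of Hist1h4i. In Hist1h4i, Hist1h2ag and Hist1h2bj Gli2/3 cKO was the lowest library and Hand2 cKO 2 the highest. Hist1h4i was the one member of the group in which Hand2 cKO 3 lay above WT together with Hand2 cKO 1 and 2. Among genes within 100000 bases that encode no histone, the zinc finger gene Zfp184 was at 29.2 and 28.9 CPM in WT, 30.9, 28.2 and 31.5 in Hand2 cKO and 27.2 in Gli2/3 cKO. Relative to its level, its range was narrower than those of the 5 members. Prss16, a protease gene, was low and varied, at 0.234 and 0.0442 CPM in WT, 0.359, 0.211 and 0.361 in Hand2 cKO and 0.0383 in Gli2/3 cKO, and Gm11282 ranged from 0.343 CPM in Hand2 cKO 2 to 1.99 in WT 4.

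**Figure D5:**
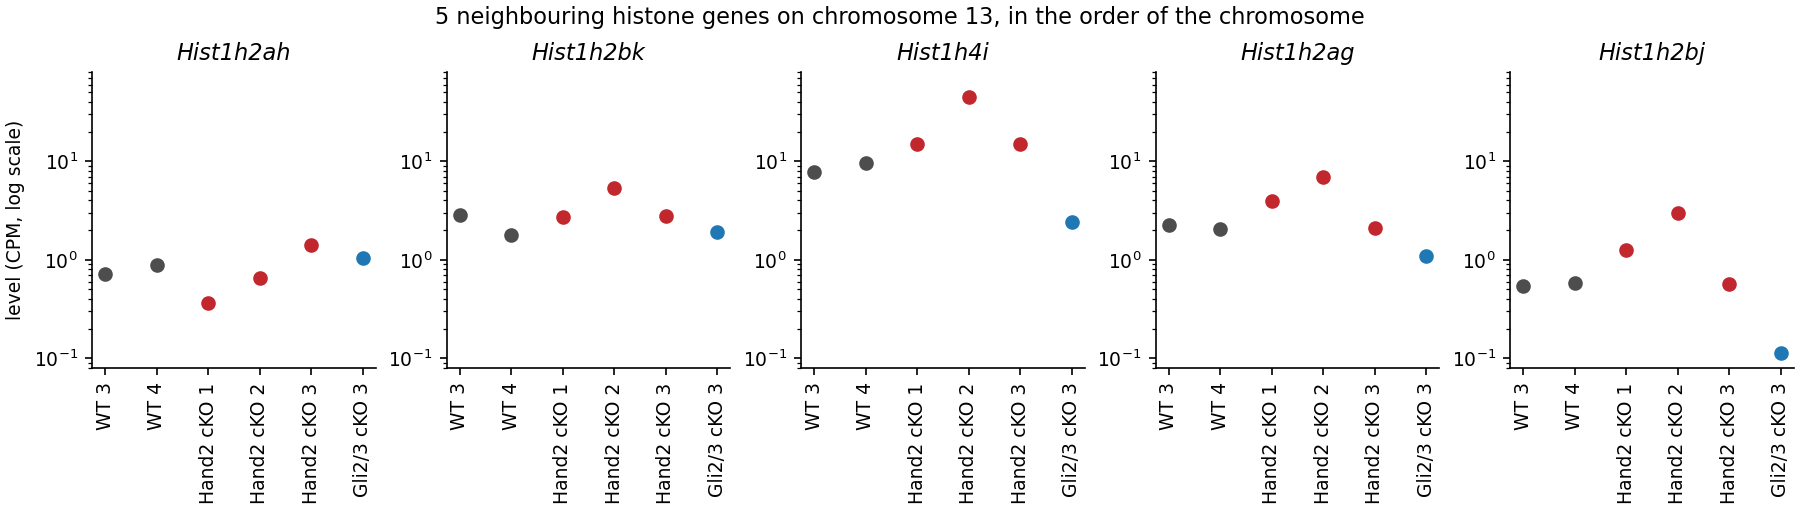
CPM on a log axis of the 5 neighbouring members in each of the 6 libraries, in the order of the chromosome, with WT in grey, Hand2 cKO in red and Gli2/3 cKO in blue. Hist1h4i spans 2.44 CPM in Gli2/3 cKO to 45.2 in Hand2 cKO 2, and Hist1h2ag 1.08 to 6.99 and Hist1h2bj 0.112 to 2.99 between the same libraries. The 0.112 CPM of Hist1h2bj is below the floor of 3 counts in Gli2/3 cKO.

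Genes that act on histone mRNA or are expressed with it were taken from lists chosen by function. Of 25 tested genes for histone mRNA processing and transcription, 17 were positive in Hand2 cKO against WT, with a median log2 fold change of 0.12, 2 higher and 0 lower at an unadjusted p below 0.05 and 0 called by edgeR. Among all genes tested in this comparison 49.9% were positive, 2.44% higher and 4.02% lower at that p, and 0.0114% called. Slbp, which binds the stem-loop, was at 134 and 116 CPM in WT, 170, 206 and 160 in Hand2 cKO and 160 in Gli2/3 cKO, a log2 fold change of 0.52 ± 0.18 (unadjusted p 0.0271) in Hand2 cKO against WT. It was above both WT libraries in all 4 mutant libraries, Gli2/3 cKO included. Of 30 S phase genes 30 were positive, with a median of 0.23, 2 higher at an unadjusted p below 0.05 and 0 called. Slbp is on both lists and is among the 2 higher genes of each, so the lists are not separate. Without Hand2 cKO 2 27 of the S phase genes were positive, against 47.4% of all genes in that fit, with a median of 0.15. In that fit 8 were higher at an unadjusted p below 0.05 by edgeR, against 4.26% of all genes. Rrm2, the ribonucleotide reductase subunit of S phase, was at 0.37 ± 0.16. In Gli2/3 cKO against WT 23 of the 30 were positive, against 50.2% of all genes, with a median of 0.06. Of 20 G2 and M phase genes 17 were positive in Hand2 cKO against WT, with a median of 0.09 and 0 at an unadjusted p below 0.05 in either direction.

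Histone genes outside the clusters, whose mRNAs are as a rule polyadenylated, though not all of them need be, were also compared. Of 11 tested, 9 were positive in Hand2 cKO against WT, with a median of 0.31, and 0 were called by edgeR, with 1 higher and 1 lower at an unadjusted p below 0.05. Among all genes 49.9% were positive and 0.0114% called, with 2.44% higher and 4.02% lower at that p. H2afz was at 694 and 467 CPM in WT, 920, 1461 and 795 in Hand2 cKO and 768 in Gli2/3 cKO, or 0.87 ± 0.33. H2afv, its close relative, was at 146 and 153 CPM in WT, 73.9, 125 and 70.8 in Hand2 cKO and 55.7 in Gli2/3 cKO, or -0.74 ± 0.27. All 4 mutant libraries were above WT in H2afz and below it in H2afv. Without Hand2 cKO 2 edgeR called 1 gene of this list, H2afv, lower than WT, with an adjusted p of 0.0385 in Hand2 cKO and of 0.0486 in Gli2/3 cKO, in fits that called 0.225% and 0.0807% of all genes. With the length trend removed its adjusted p in Hand2 cKO was 0.0453 by edgeR, against 0.32% of genes called. Of 23 histone chaperones 18 were positive in Hand2 cKO against WT, with a median of 0.15 and 0 called. By edgeR 2 were higher and 0 lower at an unadjusted p below 0.05, against the shares of all genes given above. These were Nap1l1 at 0.47 ± 0.18 and Npm1 at 0.62 ± 0.25, both chaperones that bind core histones. In Gli2/3 cKO against WT 4 of the 11 histone genes outside the clusters and 16 of the 23 chaperones were positive, against 50.2% of all genes. Of 27 RNAs known to lack poly(A) tails that were sought as a measure of unselected RNA, 0 were listed in the files.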

How the data were processed

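MNPs of CD1 mouse embryos were profiled by RNA-seq of polyadenylated RNA. According to the study's methods, the authors mapped paired-end reads on mm10 and estimated abundance in Strand NGS, which also ran DESeq2, and the processing notes name DESeq2 and mm10. Its version, annotation and strand setting were not stated in the sources at hand. The deposited files hold expected counts, estimated by the authors' program for each of 105129 transcripts without further normalization. They were summed per gene symbol and rounded.

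Genotypes were taken from the labels. All 6 libraries entered 1 quasi-likelihood fit in edgeR 4.0.16 (R 4.3.3) with genotype as the term, after filterByExpr (17477 genes) and scaling by the trimmed mean of M values. The fit had 3 residual degrees of freedom, a prior of 3.14 and a biological coefficient of variation of 0.289. Calls needed a Benjamini-Hochberg adjusted p below 0.05 over all genes and a fold above 1.5. CPM used scaled library sizes, and CPM per kilobase the count-weighted length in GENCODE M21. Family sums, shares and motif matches have no test. DESeq2 1.42.0, other scalings, no filter, removal of each library's length trend and leaving out libraries were tried as alternatives. Floors of 3 counts per library and Wilson intervals cover counting error only. Libraries of a group differed beyond sampling noise, with chi-square values per degree of freedom of 24.0 to 225.

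Of the transcripts, 99505 matched GENCODE M21 with their version and 103635 without. Stem-loops come from GENCODE M21 (mm10) and promoters from RefSeq (GRCm38.p6). 3 members are annotated as pseudogenes, and Hist1h2bh and Hist1h2bm have a transcript under another symbol in M21. Counts of near-identical copies depend on how that program divided shared reads and are uncertain. Named members were, per family, the 4 highest per kilobase, the 2 with the smallest p in Hand2 cKO against WT and the 1 in each other comparison, up to 3 with the largest spliced or long share, the Hist3h and Hist4h genes, and up to 3 genes per other list. A result that this rule selects is not reported here, and counts of list genes include it. Further members were named where a count or neighbourhood singled them out, after their values were seen. Members and lists were chosen with earlier results of these data known. The test was checked on simulated data, with changes placed only in genes with more counts, so the check does not cover members with low counts.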

Additional observations from a re-analysis of the deposited data

How the results depend on the processing

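Cluster members called in Hand2 cKO against WT and in Gli2/3 cKO against WT were 0 under every alternative run. Outside the clusters, H2afv was called in both without Hand2 cKO 2, and in the first after removal of the length trend. In Gli2/3 cKO against Hand2 cKO the 0 members called became 1, Hist1h4i, with DESeq2, and ranged from 0 to 1 when libraries were left out, the 1 being without Hand2 cKO 2. The median over tested members in Hand2 cKO against WT was 0.51, but 0.15 with the length trend removed and from 0.17, without Hand2 cKO 2, to 0.71, without Hand2 cKO 3. In Gli2/3 cKO against Hand2 cKO it was -0.22, but -0.02 once the trend was removed and from -0.48 to -0.11 when libraries were left out. The WT member sum of 63.5 CPM moved by more than the small spread of the WT pair, to 66.4 CPM on plain totals and 68.5 CPM with the length trend removed, and the WT H3 sum from 6.04 to 6.77 CPM with the trend removed. Some family medians changed sign. H3 in Hand2 cKO against WT went from 0.37 to -0.08 after removal of that trend and to -0.06 when Hand2 cKO 2 was left out, and H2B in Gli2/3 cKO against WT from -0.05 to 0.04 with the trend removed. Among the counts, sums, shares and overall medians, 131 recomputed values were within 1 SD or, for counts, 1.5 times of the reported value or, for medians, kept their sign, and of the log2 fold changes of members chosen for a small p, 213 kept their direction and side of the threshold and 2, both of Hist1h4i in Gli2/3 cKO against Hand2 cKO, passed it. Leaving out libraries from the family sums and lists was added after seeing the data. No paired analysis was possible because the labels give no pairing of libraries, and Gli2/3 cKO has 1 library. An equal replicate number is not read as a pair. A fit of Gli2/3 cKO and WT alone was not run, since it leaves 1 residual degree of freedom. Most members had under 20 counts in the median library, which limits what the tests could detect.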
